A study of Homo sapiens with 12 samples.

Results

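The genes described here are the EGF family ligands AREG, EREG, HBEGF, TGFA, EPGN and BTC and the 4 ERBB receptors EGFR, ERBB2, ERBB3 and ERBB4, taken by name as 10 of the 58302 genes in a table of read counts. Each of the 10 names matched 1 Ensembl identifier in the table, and all 10 genes passed the filter on low counts. Polyadenylated RNA was sequenced from 2 human prostate cancer cell lines, each carrying 1 of 3 constructs in an MSCV vector, with 2 libraries in each of the 6 groups and 12 libraries in all. PC3 cells were derived from a metastasis in bone, and 22Rv1 is a line derived from the CWR22 xenograft. The constructs were an IRES-eGFP control, wild-type ETV4 followed by IRES-eGFP (ETV4WT) and a mutated ETV4 followed by IRES-eGFP (ETV4AAA). Every group, the control included, was infected with virus, kept for 1 week and sorted for live cells with green fluorescence, so each group is a sorted population and the control also carries a vector and eGFP. The sources used here do not name the residues changed in ETV4AAA. ETV4 is a transcription factor of the PEA3 group of the ETS family, and the comparisons ask how wild-type and mutated ETV4 change RNA levels in each line.

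EGF family ligands are made as membrane-anchored precursors, and proteases of the ADAM family cut them free so that they can act on the same cell or its neighbours. The soluble ligand makes ERBB receptors pair and phosphorylate each other, which switches on the RAS-ERK and PI3K-AKT routes. EGFR binds AREG, TGFA and EPGN, both EGFR and ERBB4 bind HBEGF, EREG and BTC, ERBB2 has no known ligand, and ERBB3 has little kinase activity of its own and signals through its partner. PEA3 factors are known as nuclear targets of ERK, and prostate epithelium uses EGF family growth factors alongside androgens.

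Promoters are shown first for the 5 ligands called against eGFP in either line, because ETV4, like other ETS factors, binds DNA around a GGAA core. The windows come from RefSeq on GRCh38.p14, cover the 250 bases before each annotated start, and are printed 5′ to 3′ on the gene's strand with bases of annotated exons left off. Capitals mark GGAAGT, read on the opposite strand as ACTTCC, which extends the ETS core, and TGACGTCA, the palindrome bound by CREB factors. The AREG window is chr4:74444886-74445133 and the EREG window chr4:74364895-74365142, both on the plus strand. The EPGN window is chr4:74308220-74308469 on the plus strand and the HBEGF window chr5:140346632-140346853 on the minus strand. TGFA has 2 annotated starts, with chr2:70554016-70554076 left of the window of the first and chr2:70553639-70553696 of the second, on the minus strand.
AREG: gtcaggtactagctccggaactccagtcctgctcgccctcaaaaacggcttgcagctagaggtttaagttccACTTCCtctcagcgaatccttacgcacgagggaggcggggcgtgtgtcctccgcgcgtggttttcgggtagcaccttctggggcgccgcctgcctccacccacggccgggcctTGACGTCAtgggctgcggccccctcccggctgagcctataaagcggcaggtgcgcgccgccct
EREG: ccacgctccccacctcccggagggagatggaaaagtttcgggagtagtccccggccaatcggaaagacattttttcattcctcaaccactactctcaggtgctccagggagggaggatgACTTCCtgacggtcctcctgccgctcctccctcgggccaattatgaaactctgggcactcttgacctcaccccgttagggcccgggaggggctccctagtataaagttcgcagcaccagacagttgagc
EPGN: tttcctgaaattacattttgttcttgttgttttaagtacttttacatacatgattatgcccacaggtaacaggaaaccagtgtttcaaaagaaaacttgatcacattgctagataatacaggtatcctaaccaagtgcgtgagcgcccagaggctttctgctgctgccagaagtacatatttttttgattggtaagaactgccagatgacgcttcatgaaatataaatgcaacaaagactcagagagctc
HBEGF: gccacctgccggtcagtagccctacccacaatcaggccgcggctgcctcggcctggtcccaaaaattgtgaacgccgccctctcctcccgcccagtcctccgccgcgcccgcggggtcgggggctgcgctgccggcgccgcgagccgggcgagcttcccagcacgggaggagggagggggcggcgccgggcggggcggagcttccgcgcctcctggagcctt
TGFA first start: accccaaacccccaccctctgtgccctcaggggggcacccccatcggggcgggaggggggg
TGFA second start: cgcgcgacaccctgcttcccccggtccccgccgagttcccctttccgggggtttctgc
AREG held 1 GGAAGT match, 178 bases before its start, and 1 TGACGTCA match 65 bases before it. EREG held 1 GGAAGT match, 131 bases before its start. Neither motif was found in the EPGN, HBEGF and TGFA windows, exon bases included, which says only that those letters are not there. The table had 11 windows for 9 of the 10 genes, and GGAAGT was found in 3 of them on either strand, those of AREG, EREG and ERBB2. Over all 35116 promoter windows of 250 bases, 19.498% held GGAAGT and 1.646% held TGACGTCA. The bare core GGAA, which every GGAAGT match contains, was in 92.736% of all windows and in 11 of the 11. The ERBB2 window held 3 GGAAGT matches, the most of the 9 genes, and a pair of them, in opposite orientations, fall in the 30 bases chr17:39688064-39688093 on the plus strand. Unlike the stretches above, these are bases of annotated exons, since no base of the ERBB2 window is free of them.
ERBB2: tccACTTCCggagtaaccGGAAGTtcctgt
TGANTCA, a looser form of the AP-1 motif in which N is any base, was found in 2 windows, against 6.573% of all windows. At the second EGFR start the matches read TGAGTCA and TGACTCA, and in ERBB2 the match reads TGATTCA. A match describes the sequence and does not show binding.

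The libraries held 43572713 to 51199207 counts in PC3 and 41698738 to 50226044 in 22Rv1. Levels are CPM, read counts divided by the TMM-scaled library size, and changes are log2 differences ± SE from edgeR's quasi-likelihood test over 23238 genes, called where the Benjamini-Hochberg adjusted p was under 0.05. Each group has n = 2 libraries, and nothing in the labels tells whether the pair were grown apart, so each p-value reflects only how far these samples vary, which may be technical. ETV4 in 22Rv1 was at 31.2 and 24.9 CPM in the eGFP libraries, 385 and 484 with ETV4WT and 390 and 281 with ETV4AAA. PC3 eGFP libraries had 116 and 126 CPM of it, libraries labelled ETV4WT 215 and 112, and libraries labelled ETV4AAA 223 and 109. The PC3 construct libraries of replicate 2 therefore do not show more ETV4 than the control, and the PC3 results below are those of the libraries so labelled, with ETV4 changed by 0.43 ± 0.33 and 0.46 ± 0.33 and not called. The line marker KLK3 matched the labels: it had 0 counts in the 6 PC3 libraries and 19.8 to 53.3 CPM in 22Rv1.

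The 2 lines differed at baseline in most of the 10 genes. With eGFP alone, PC3 had more RNA of all 6 ligands, and 22Rv1 had more ERBB2 and ERBB3. Of the 10 genes, 2 were higher and 7 were lower in 22Rv1. Among all genes tested 70.9% were called between the lines, 34.9% higher and 36% lower. The median over the 10 genes was -1.80 on the log2 scale, against 0 over all genes tested. Counted per kilobase of exon, the 6 ligands summed to 24.6 ± 0.166 CPM per kb (SD, n = 2) in PC3 with eGFP and 3.19 ± 0.233 in 22Rv1 with eGFP. The 4 receptors summed to 7.56 ± 0.093 CPM per kb in PC3 and 46.1 ± 1.43 in 22Rv1. For these 10 genes PC3 was thus the line with more ligand RNA than receptor RNA per kilobase, and 22Rv1 the reverse. The ligand sum leaves out EGF and the neuregulins, of which NRG3 was called higher and EGF and NRG2 lower in 22Rv1. That is 3 of 4 tested, near the 70.9% of all genes.

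AREG, amphiregulin, held the largest share of ligand RNA in PC3 eGFP cells, 33.5% of the sum per kilobase, followed by TGFA with 29.6% and HBEGF with 19.4%. In 22Rv1 eGFP cells BTC, betacellulin, came first with 37.9%, followed by HBEGF with 30.5%. Neither order had overlapping libraries between these neighbours. EGFR made up 59.6% of receptor RNA in PC3, while ERBB3 made up 74.3% in 22Rv1, with EGFR at 7.36%. Most of that difference is in ERBB3: it was at 5.39 and 5.16 CPM in PC3 and at 309 and 311 CPM in 22Rv1, a log2 difference of 5.87 ± 0.17 (adjusted p = 7.44e-11). ERBB2 differed by 1.89 ± 0.29. EGFR was close in the 2 lines, at 55.8 and 57.0 CPM against 43.5 and 41.6 CPM, and its difference of -0.41 ± 0.14 (adjusted p = 0.0215) was no longer called under 7 of the alternatives tried, with an adjusted p of 0.705 under upper-quartile scaling. ERBB4 was not called, at 4.33 and 3.46 CPM against 4.62 and 5.76 CPM.

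Among the ligands, the baseline difference was smallest for BTC, at -1.30 ± 0.23, and HBEGF, at -2.30 ± 0.16. It was -3.89 ± 0.29 for AREG, -4.13 ± 0.16 for TGFA and -4.92 ± 0.37 for EPGN. EREG, epiregulin, was close to absent in 22Rv1: 1 and 0 counts in the eGFP libraries against 143 counts over the 2 PC3 libraries, a ratio of 0.00691 (95% interval 0.000174 to 0.0391, counting error only, since amplified reads are not independent molecules).

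**Figure D1:**
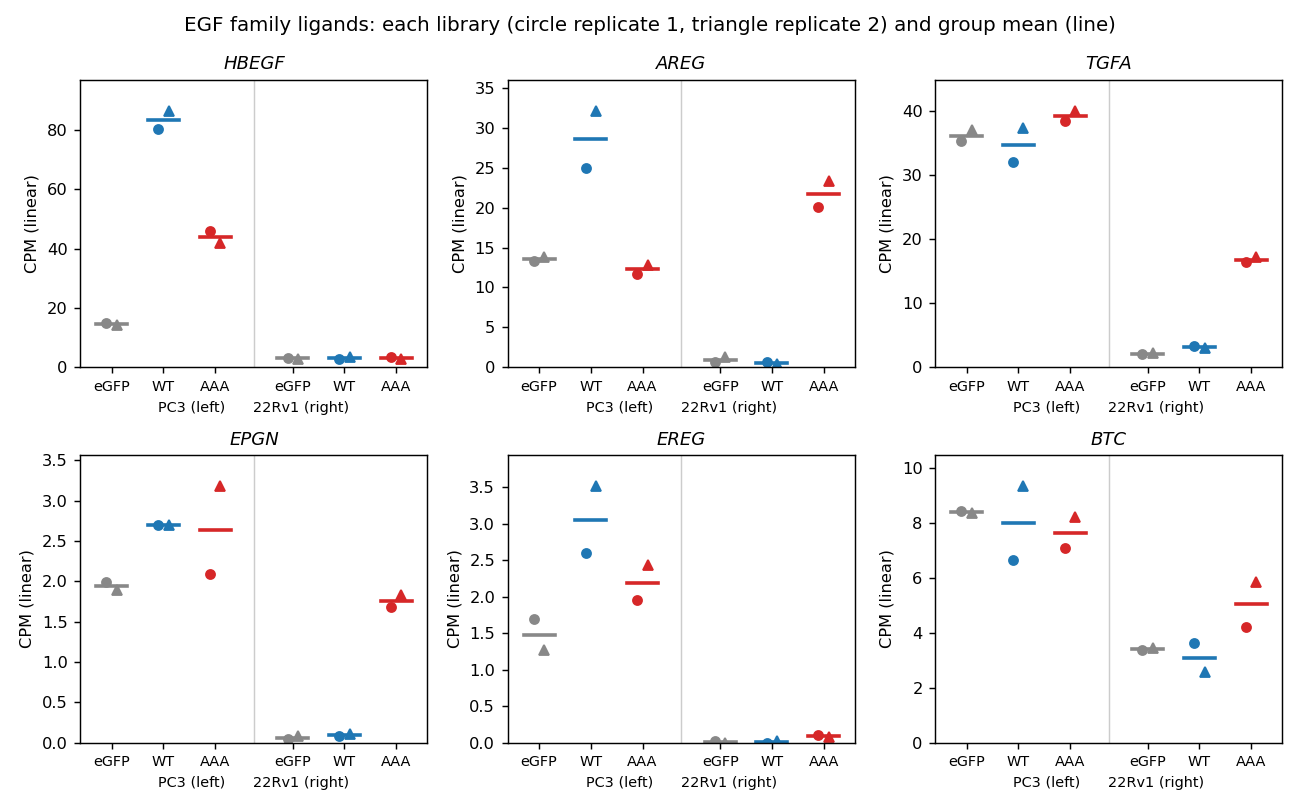
CPM of the 6 ligands in each library, on a linear axis that starts at 0, with the 6 groups along the horizontal axis, circles for replicate 1, triangles for replicate 2 and a line at the group mean. HBEGF is raised in both PC3 construct groups and stays near 3 CPM in every 22Rv1 group, while AREG, TGFA and EPGN are raised in 22Rv1 with ETV4AAA.

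HBEGF, the heparin-binding ligand that also serves as the diphtheria toxin receptor, rose in PC3 with both constructs. The eGFP libraries had 14.8 and 14.0 CPM, libraries labelled ETV4WT 80.3 and 86.7, and libraries labelled ETV4AAA 45.8 and 41.9. The 3 PC3 groups do not overlap, and ETV4WT is the highest. The change was 2.53 ± 0.16 with ETV4WT, a 5.79-fold rise (adjusted p = 1.85e-06), and 1.61 ± 0.15 with ETV4AAA, a 3.04-fold rise (adjusted p = 0.000174). ETV4AAA was below ETV4WT (-0.93 ± 0.15, adjusted p = 0.00172). Both rises were present in replicate 1 and in replicate 2, although only replicate 1 had more ETV4 than the control. In 22Rv1 the same gene was at 3.12 and 2.74 CPM in the eGFP libraries, 2.61 and 3.18 with ETV4WT and 3.39 and 2.80 with ETV4AAA, and the groups overlap. The construct effects on HBEGF differed between the lines by -2.55 ± 0.23 for ETV4WT (adjusted p = 3.88e-05) and -1.52 ± 0.23 for ETV4AAA (adjusted p = 0.000645). The order of its levels was PC3 ETV4WT, PC3 ETV4AAA, PC3 eGFP and then the 3 overlapping 22Rv1 groups.

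AREG rose in a different group in each line. In PC3 it was at 13.3 and 13.8 CPM in the eGFP libraries, 25.0 and 32.2 with ETV4WT and 11.7 and 12.8 with ETV4AAA. Only the libraries labelled ETV4WT stood above the other PC3 groups. The rise with ETV4WT was 1.08 ± 0.24 (adjusted p = 0.00736), and it lost its call without either eGFP library, with an adjusted p of 0.0665 without replicate 1 and 0.0607 without replicate 2. ETV4AAA was below ETV4WT (-1.22 ± 0.24, adjusted p = 0.00648). 22Rv1 had 0.615 and 1.21 CPM of AREG with eGFP, 0.566 and 0.327 with ETV4WT, but 20.1 and 23.4 with ETV4AAA. That last group lay above PC3 eGFP. Its rise was 4.57 ± 0.30, or 23.7-fold (adjusted p = 2.74e-07), and 5.61 ± 0.32 above ETV4WT (adjusted p = 1.35e-07). The change with ETV4WT in 22Rv1, -1.04 ± 0.35, was not called (adjusted p = 0.202), though it was without the low-count filter (adjusted p = 0.0346). AREG was the one gene of the 10 whose construct effects differed between lines in opposite senses: -2.12 ± 0.42 for ETV4WT (adjusted p = 0.00707) and 4.71 ± 0.38 for ETV4AAA (adjusted p = 4.89e-06).

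TGFA, a close relative of EGF, rose in 22Rv1 with ETV4AAA and was not called in PC3. PC3 had 35.3 and 37.0 CPM in the eGFP libraries, 32.0 and 37.3 with ETV4WT and 38.5 and 40.0 with ETV4AAA, and neither construct was called. In 22Rv1 it was at 1.95 and 2.18 CPM in the eGFP libraries, 3.29 and 3.02 with ETV4WT and 16.3 and 17.1 with ETV4AAA. The 3 groups of 22Rv1 do not overlap. The rise with ETV4AAA was 3.02 ± 0.16, or 8.09-fold (adjusted p = 4.24e-08), and it was 2.41 ± 0.15 above ETV4WT (adjusted p = 2.64e-07). The ETV4WT value of 0.61 ± 0.16 did not pass (adjusted p = 0.0896). Even with ETV4AAA, 22Rv1 stayed below every PC3 library. The ETV4AAA effect differed between the lines by 2.90 ± 0.21 (adjusted p = 1.85e-06).

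EPGN, epigen, the least known of the EGFR ligands, showed the same pattern at lower counts. The 22Rv1 libraries had 2 and 4 counts with eGFP, 4 and 5 with ETV4WT and 76 and 77 with ETV4AAA, the last being 1.69 and 1.83 CPM. The rise with ETV4AAA was 4.77 ± 0.38 (adjusted p = 1.5e-06), and 4.17 ± 0.35 above ETV4WT (adjusted p = 3.29e-06). PC3 had 1.99 and 1.89 CPM in the eGFP libraries, 2.69 and 2.69 with ETV4WT and 2.10 and 3.18 with ETV4AAA, with no call. With ETV4AAA, 22Rv1 thus came within 1 CPM of the PC3 control. The ETV4AAA effect differed between the lines by 4.34 ± 0.46 (adjusted p = 4.82e-05).

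EREG also rose in PC3 with ETV4WT, at a lower level. It was at 1.69 and 1.27 CPM in the eGFP libraries, 2.60 and 3.52 with ETV4WT and 1.95 and 2.44 with ETV4AAA. The rise with ETV4WT was 1.04 ± 0.26 (adjusted p = 0.0119), and it was not called without eGFP replicate 2 (adjusted p = 0.131), without ETV4WT replicate 2 (adjusted p = 0.0997) or with the PC3 construct libraries of replicate 1 alone (adjusted p = 0.057). In 22Rv1 it had 8 counts over the 2 ETV4AAA libraries and 1 over the 2 eGFP libraries, a ratio of 8.93 (95% interval 1.20 to 396), and was not called (adjusted p = 0.0625). It was called there by limma-voom (adjusted p = 0.0294) and without the low-count filter (adjusted p = 0.0412). At these depths a level in 22Rv1 cannot be ranked.

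BTC, which binds EGFR and ERBB4, was not called against eGFP in either line. PC3 had 8.43 and 8.36 CPM in the eGFP libraries, 6.65 and 9.33 with ETV4WT and 7.07 and 8.20 with ETV4AAA. In 22Rv1 it was at 3.36 and 3.44 CPM in the eGFP libraries, 3.64 and 2.55 with ETV4WT and 4.22 and 5.84 with ETV4AAA. The 22Rv1 ETV4AAA libraries were the highest of that line, and the gene was called against ETV4WT (0.70 ± 0.23, adjusted p = 0.0492) and not against eGFP (0.56 ± 0.23, adjusted p = 0.0875). The first call was lost under upper-quartile scaling (adjusted p = 0.0695), limma-voom (adjusted p = 0.0616) and without ETV4WT replicate 2 (adjusted p = 0.294) or ETV4AAA replicate 2 (adjusted p = 0.322). The second was called without the low-count filter (adjusted p = 0.0494).

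The receptor changes called against eGFP were those of EGFR and ERBB3, both falls in PC3. EGFR was at 55.8 and 57.0 CPM in the eGFP libraries, 33.8 and 38.7 with ETV4WT and 48.7 and 49.6 with ETV4AAA. The 3 groups do not overlap, and ETV4WT is lowest. The ETV4WT change was -0.64 ± 0.14 (adjusted p = 0.00687), lost without eGFP replicate 2 (adjusted p = 0.0622). The ETV4AAA change of -0.20 ± 0.14 was not called. In 22Rv1 EGFR was at 43.5 and 41.6 CPM in the eGFP libraries, 35.2 and 44.5 with ETV4WT and 39.2 and 34.8 with ETV4AAA, with no call. An antisense gene that overlaps EGFR exons, EGFR-AS1, had at most 5 counts in any library.

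ERBB3, the partner receptor for neuregulins, was low in PC3 and fell further with both constructs. It was at 5.39 and 5.16 CPM in the eGFP libraries, 2.62 and 3.54 with ETV4WT and 3.12 and 3.13 with ETV4AAA. Both construct groups lie below the control. The changes were -0.78 ± 0.15 with ETV4WT (adjusted p = 0.00315) and -0.75 ± 0.15 with ETV4AAA (adjusted p = 0.018). The ETV4AAA call was lost under limma-voom (adjusted p = 0.0559), with each line fitted on its own (adjusted p = 0.124), without eGFP replicate 1 (adjusted p = 0.172) or 2 (adjusted p = 0.127) and without ETV4AAA replicate 2 (adjusted p = 0.0664). In 22Rv1 ERBB3 was at 309 and 311 CPM in the eGFP libraries, 262 and 301 with ETV4WT and 315 and 284 with ETV4AAA. Both ETV4WT libraries lay below both eGFP libraries, the ETV4AAA libraries overlapped each of these groups, and neither construct was called. The gene AC034102.2, which overlaps ERBB3 exons, had 0 counts in every library.

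ERBB2, the HER2 receptor, was not called for either construct in either line. In PC3 it was at 21.7 and 23.1 CPM in the eGFP libraries, 18.8 and 10.5 with ETV4WT and 19.0 and 11.1 with ETV4AAA. Replicate 2 of each construct is the low one, as it was for ETV4. The change of -0.61 ± 0.29 with ETV4WT was not called (adjusted p = 0.148), but was without the low-count filter (adjusted p = 0.0333) and, at -1.09, without ETV4WT replicate 1 (adjusted p = 0.0215). In 22Rv1 the 6 libraries ran from 66.6 to 94.6 CPM with no order by construct. MIEN1, with 501 to 3576 counts, and PGAP3, with 50 to 849 counts, lie on the opposite strand and share exon bases with ERBB2. The strand setting of the counting is not stated, so reads of the shared bases cannot be told apart.

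ERBB4, the neuregulin and HBEGF receptor, was low in both lines. PC3 had 4.33 and 3.46 CPM in the eGFP libraries, 2.27 and 3.78 with ETV4WT and 1.99 and 2.27 with ETV4AAA. The ETV4AAA libraries were below both controls, and the change of -0.87 ± 0.25 was not called (adjusted p = 0.0889), but was without the low-count filter (adjusted p = 0.0137) and with a replicate block (adjusted p = 0.0459). In 22Rv1 it ran from 4.42 to 5.76 CPM over the 6 libraries, with no call.

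**Figure D2:**
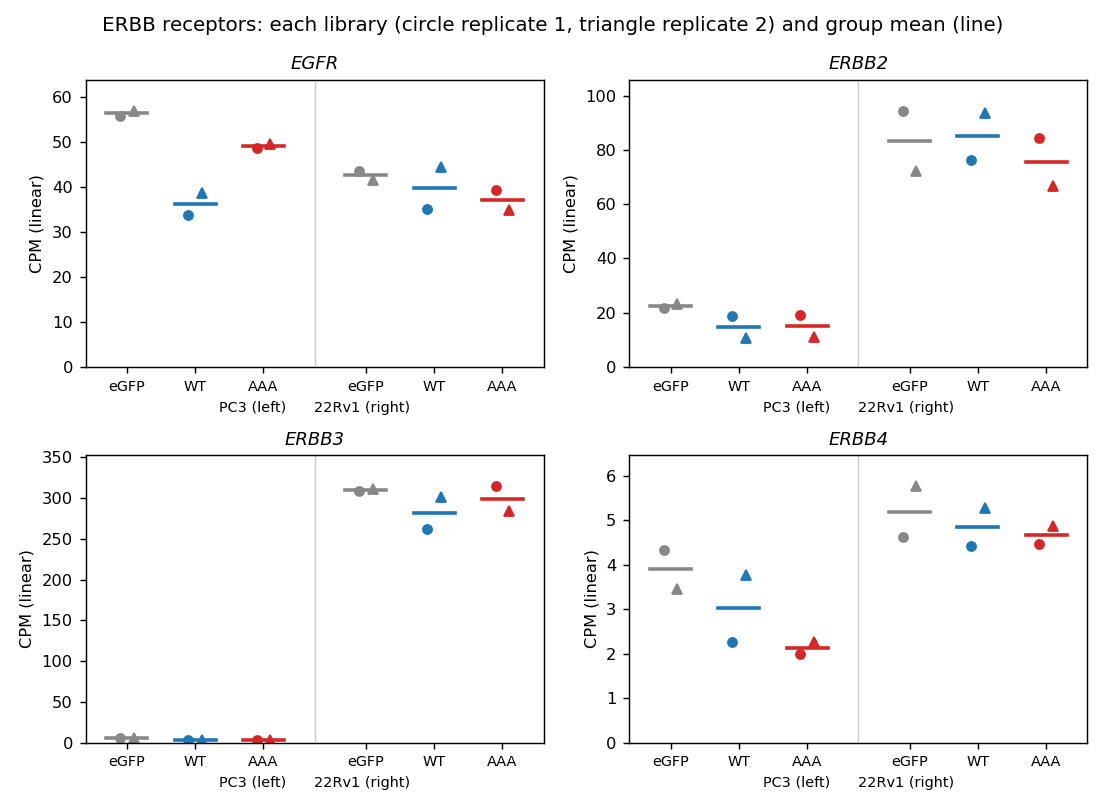
CPM of the 4 receptors in each library, on linear axes that start at 0, with the 6 groups along the horizontal axis, circles for replicate 1, triangles for replicate 2 and a line at the group mean. ERBB3 is near 300 CPM in the 22Rv1 libraries and under 6 CPM in the PC3 libraries, and within PC3 EGFR is lowest with ETV4WT.

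Counted over the 10 genes, PC3 with ETV4WT had 3 that rose (HBEGF, AREG and EREG) and 2 that fell (EGFR and ERBB3), where 23.4% of all genes tested were called, 12.7% higher and 10.7% lower. PC3 with ETV4AAA had 1 rise (HBEGF) and 1 fall (ERBB3), where 3.69% of all genes were called, 2.45% higher and 1.24% lower. Between the PC3 constructs, HBEGF and AREG were lower with ETV4AAA, 2 of 10, where 11% of all genes were called, 3.65% higher and 7.32% lower. In 22Rv1 with ETV4WT, 0 of the 10 were called by edgeR, DESeq2 or limma-voom, and 2 had an unadjusted p under 0.05 with each. Of all genes 1.5% were called there, 1.06% higher and 0.439% lower. With ETV4AAA 3 rose (AREG, TGFA and EPGN) and 0 fell, where 31.8% of all genes were called, 17.4% higher and 14.4% lower, so 3 of 10 is near the share called among all genes. Between ETV4AAA and ETV4WT in 22Rv1, 4 were higher, those 3 and BTC, where 23.5% of all genes were called, 13.9% higher and 9.62% lower. The ETV4WT effect differed between the lines for 2 of 10 (HBEGF and AREG, both lower in 22Rv1), where 12.5% of all genes were called, 4.92% higher and 7.57% lower. The ETV4AAA effect differed for 5 of 10 (HBEGF lower, and AREG, TGFA, EPGN and ERBB3 higher, in 22Rv1), where 16.2% of all genes were called, 9.48% higher and 6.73% lower. The DESeq2 Wald test called 4 of these, without ERBB3 (adjusted p = 0.0769). The medians over the 10 genes were -0.07, -0.14, -0.05 and 0.32 in PC3 ETV4WT, PC3 ETV4AAA, 22Rv1 ETV4WT and 22Rv1 ETV4AAA against eGFP. Over all genes tested they were between 0 and 0.01 in size. Comparisons of a line's constructs share its 2 eGFP libraries.

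**Figure D3:**
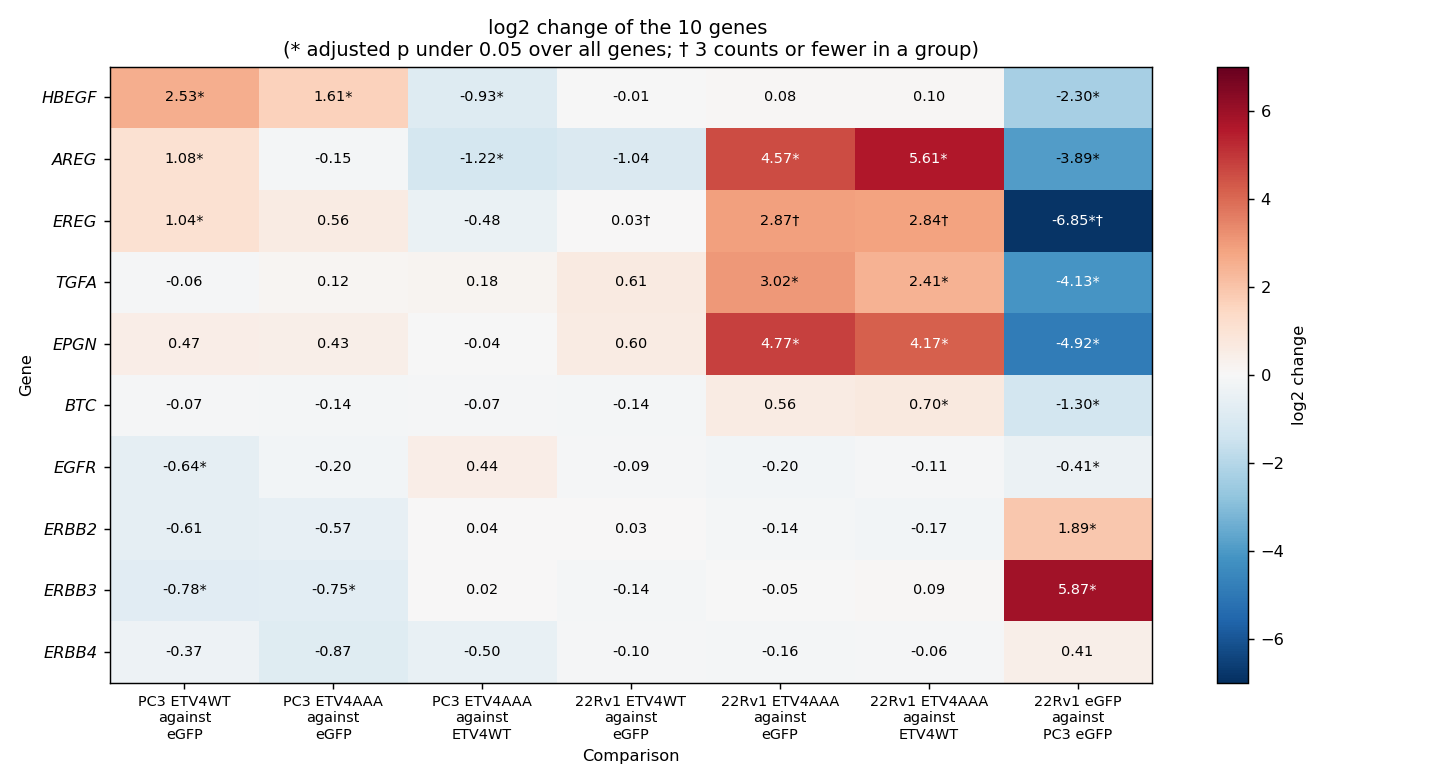
log2 changes of the 10 genes (vertical axis) in 7 comparisons (horizontal axis), with red for higher and blue for lower in the first-named group, a star for an adjusted p under 0.05 and a dagger where a group had 3 counts or fewer. Among the comparisons of a construct with eGFP, HBEGF is 2.53 in PC3 ETV4WT, and AREG, TGFA and EPGN are 4.57, 3.02 and 4.77 in 22Rv1 ETV4AAA.

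In sum over the ligands, PC3 went from 24.5 and 24.7 CPM per kb with eGFP to 52.6 and 61.2 with ETV4WT and 34.1 and 34.8 with ETV4AAA. HBEGF held 48.6% of that sum with ETV4WT and 42.2% with ETV4AAA. In 22Rv1 the sum was 3.02 and 3.35 CPM per kb with eGFP, 3.21 and 2.83 with ETV4WT and 19.1 and 21.7 with ETV4AAA, where AREG held 64.8% and TGFA 16.6%. The ligand sum of 22Rv1 ETV4AAA cells thus came near that of PC3 control cells, with AREG leading in both. The receptor sums were 7.50 and 7.63, 4.99 and 4.79, and 6.24 and 5.56 CPM per kb in the eGFP, ETV4WT and ETV4AAA groups of PC3. In 22Rv1 they were 47.2 and 45.1, 39.5 and 46.4, and 46.5 and 41.0 CPM per kb, overlapping in every group.

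The 4 genes EPGN, EREG, AREG and BTC lie in this order on chromosome 4, with starts spread over 486.2 kb. AREG (ENSG00000109321) lies from 74445134 to 74455009, EREG (ENSG00000124882) from 74365143 to 74388751 and EPGN (ENSG00000182585) from 74308473 to 74315307, all on the plus strand. BTC (ENSG00000174808) lies from 74744759 to 74794686 on the minus strand. HBEGF (ENSG00000113070) is on chromosome 5 from 140332843 to 140346631 and TGFA (ENSG00000163235) on chromosome 2 from 70447280 to 70554193, both on the minus strand. Of the 3 ligands that rose in 22Rv1 ETV4AAA, TGFA thus lies outside the chromosome 4 cluster. Positions are those of GENCODE 29 on GRCh38, and all 10 genes are protein-coding. Of 14 annotated genes within 250 kb of the cluster, 8 were tested and 4 of these were not ligands, a window chosen after the ligand values were seen. In 22Rv1 with ETV4AAA none of the 4 passed edgeR's test, where 31.8% of all genes were called, and 4 genes are few to judge by. MTHFD2L was at -0.39 ± 0.19, AC093677.2 at -0.31 ± 0.47, PARM1 at 0.18 ± 0.12, and CXCL2 at 0 counts against 3 with eGFP. In PC3 ETV4WT 1 was called, the chemokine gene CXCL2, at 1.51 ± 0.32 (adjusted p = 0.00596). It was not called without eGFP replicate 2, with a change of 1.46. Among all genes 23.4% were called in PC3 ETV4WT, so 1 of 4 is near that share. EREG, which lies between EPGN and AREG, had 8 counts over the 2 22Rv1 ETV4AAA libraries.

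**Figure D4:**
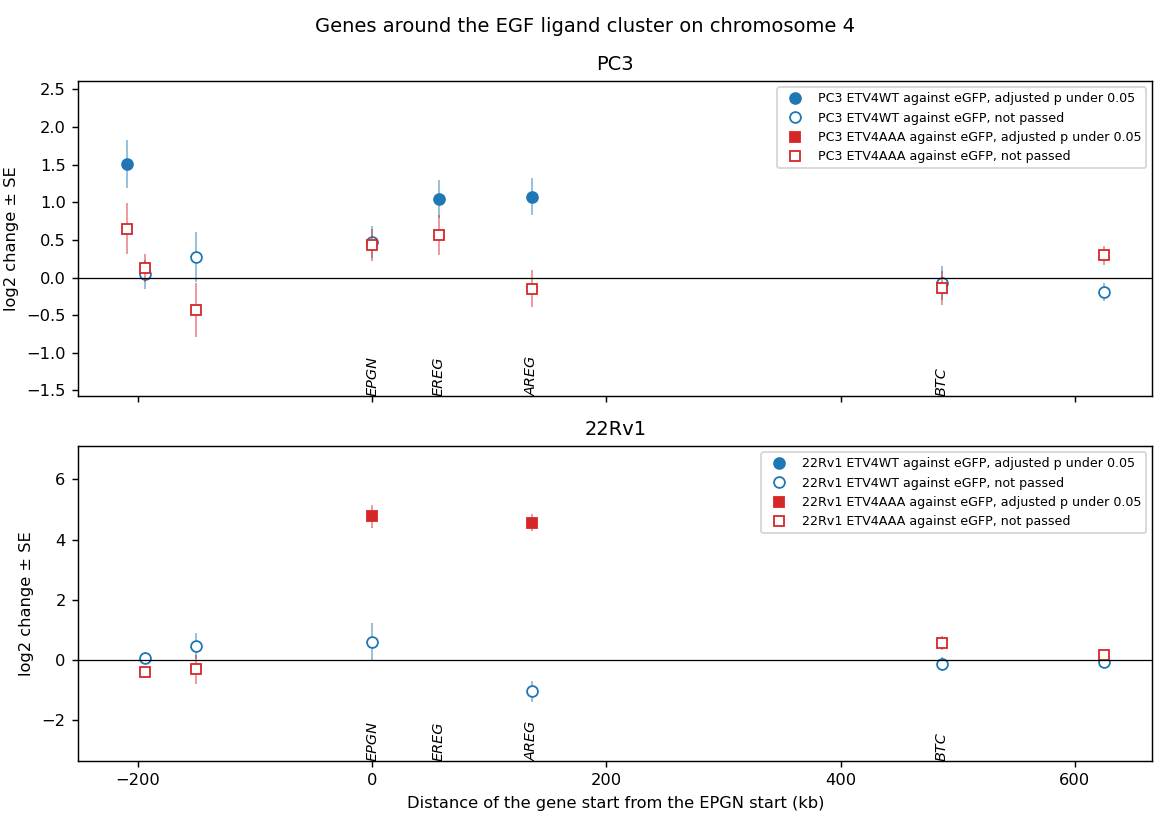
log2 change ± SE against eGFP (vertical axis) of the tested genes around the ligand cluster, by distance of each start from the EPGN start in kb (horizontal axis), for ETV4WT (circles) and ETV4AAA (squares), filled where the adjusted p was under 0.05. Genes with 3 or fewer counts in a group are left out, which removes EREG and CXCL2 from the 22Rv1 panel, and EPGN and AREG are the filled points there.

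Of the other ligands of the receptors, EGF and the neuregulins NRG1 to NRG4, 4 were tested and NRG1 had too few counts. By edgeR 1 rose in PC3 ETV4WT and 2 rose in 22Rv1 ETV4AAA, with 0 falls in either, where 23.4% and 31.8% of all genes were called, so 1 of 4 in PC3 is near the share among all genes. In PC3 ETV4AAA 0 were called by edgeR, DESeq2 or limma-voom (0 at an unadjusted p under 0.05), and in 22Rv1 ETV4WT 0 by any of these tools (1 at an unadjusted p under 0.05 with each). NRG4 rose in PC3 with ETV4WT, from 0.302 and 0.236 CPM to 0.520 and 0.603 CPM (1.05 ± 0.35, adjusted p = 0.047). That call was lost with DESeq2 (adjusted p = 0.156), with each line on its own (adjusted p = 0.0507), with the PC3 construct libraries of replicate 1 alone (adjusted p = 0.163) and without any 1 of the 4 libraries (adjusted p from 0.0701 to 0.257). EGF, the founding ligand of EGFR, rose in 22Rv1 with ETV4AAA, from 0.041 and 0.206 CPM to 1.53 and 1.61 CPM (3.64 ± 0.40, adjusted p = 2.57e-05). NRG2, an ERBB3 and ERBB4 ligand, was called in the same comparison on 16 counts against 1, a ratio of 17.9 (95% interval 2.77 to 749). The NRG2 call was lost with limma-voom (adjusted p = 0.0719), without either eGFP library (adjusted p = 0.0936 without replicate 1 and 0.192 without replicate 2) and without ETV4AAA replicate 1 (adjusted p = 0.349). It stood at 21.3 and 21.7 CPM in PC3 eGFP. 

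Among 9 shedding proteases and iRhoms, which free the ligands and carry the protease to the surface, 2 rose and 3 fell in PC3 ETV4WT, 1 rose in PC3 ETV4AAA, 0 were called in 22Rv1 ETV4WT by edgeR, DESeq2 or limma-voom (0 at an unadjusted p under 0.05), and 2 rose and 1 fell in 22Rv1 ETV4AAA. Among all genes 23.4%, 3.69%, 1.5% and 31.8% were called in these comparisons, so 3 of 9 in 22Rv1 ETV4AAA is near the share among all genes. ADAM17, the main sheddase of AREG, TGFA and HBEGF, rose in PC3 ETV4WT from 43.0 and 44.1 CPM to 58.2 and 72.2 CPM (0.58 ± 0.13, adjusted p = 0.00802). That call was lost without eGFP replicate 1 (adjusted p = 0.0808) or 2 (adjusted p = 0.0704) and without ETV4WT replicate 2 (adjusted p = 0.073). In 22Rv1 it stayed between 16.3 and 19.3 CPM. ADAM12 rose in PC3 with both constructs (1.45 ± 0.24 and 1.24 ± 0.24, the second lost without eGFP replicate 1 or 2, at adjusted p-values of 0.178 and 0.124, and without ETV4AAA replicate 2, at 0.058), and ADAM19 fell there with ETV4WT (-1.10 ± 0.13). ADAM10, the main sheddase of EGF and BTC, rose in 22Rv1 ETV4AAA from 53.6 and 58.2 CPM to 78.8 and 78.5 CPM (0.49 ± 0.13, adjusted p = 0.0136), a call lost under upper-quartile scaling (adjusted p = 0.0508) and without eGFP replicate 1 (adjusted p = 0.0791). The medians of the list were -0.60, -0.12, -0.01 and -0.06 in the 4 construct comparisons against eGFP.

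Of 24 adaptors and kinases of the cascade, 23 were tested. In PC3 2 rose and 2 fell with ETV4WT and 2 rose and 0 fell with ETV4AAA, and in 22Rv1 0 were called by edgeR, DESeq2 or limma-voom with ETV4WT (0 at an unadjusted p under 0.05) and 5 rose and 0 fell with ETV4AAA. The called shares of the list are below those of all genes in PC3 ETV4WT (23.4%) and 22Rv1 ETV4AAA (31.8%), and all genes had 3.69% in PC3 ETV4AAA and 1.5% in 22Rv1 ETV4WT. STAT3, which carries receptor signals to the nucleus, rose in PC3 with ETV4WT (3.04 ± 0.15) from 1.27 and 1.38 CPM to 10.3 and 11.4 CPM. It also rose with ETV4AAA in PC3 (0.86 ± 0.15) and in 22Rv1 (1.31 ± 0.12, from 47.3 and 49.2 CPM to 123 and 116 CPM). SOS2, a RAS exchange factor, was called in the same 3 comparisons (1.23 ± 0.16, 0.77 ± 0.16 and 0.81 ± 0.16). The PC3 ETV4AAA calls of both were lost with each line on its own (adjusted p = 0.0643 for STAT3 and 0.0692 for SOS2), without eGFP replicate 1 (0.136 and 0.159) or 2 (0.0802 and 0.202) and without ETV4AAA replicate 2 (0.0624 and 0.128). The 2 falls in PC3 ETV4WT, HRAS and PLCG1, were not called under upper-quartile scaling (adjusted p = 0.0523 and 0.0558). Nor were they called with each line on its own (adjusted p = 0.145 and 0.0939). GAB1, a docking protein of EGFR, rose in 22Rv1 with ETV4AAA (1.19 ± 0.17). The 5 rises there include a call lost under upper-quartile scaling (adjusted p = 0.0734) and without the low-count filter (adjusted p = 0.0726). The medians were -0.11, 0.21, -0.05 and -0.07.

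Feedback inhibitors of ERBB and ERK signalling, which dampen the cascade and some of which it induces, were read next. Of 16, 8 rose and 1 fell in PC3 ETV4WT, 5 rose and 0 fell in PC3 ETV4AAA, 3 rose and 0 fell in 22Rv1 ETV4WT, and 10 rose and 1 fell in 22Rv1 ETV4AAA. The shares called among all genes in these comparisons were 23.4%, 3.69%, 1.5% and 31.8%, and the list medians were 0.45, 0.25, 0.10 and 1.07. ERRFI1, also called MIG6, a direct inhibitor of the EGFR kinase, rose in PC3 from 124 and 122 CPM to 556 and 699 CPM with ETV4WT (2.35 ± 0.14, adjusted p = 1.41e-06). It was at 233 and 266 CPM with ETV4AAA in PC3 (1.02 ± 0.13). DUSP6, an ERK phosphatase, rose in 22Rv1 from 12.7 and 14.4 CPM to 37.4 and 38.2 in the ETV4WT libraries and 848 and 873 in the ETV4AAA libraries (for the latter 5.99 ± 0.14, adjusted p = 4.15e-10). SPRY4 (5.36 ± 0.16) and DUSP4 (5.22 ± 0.13) rose with it. SPRED2 was the one that fell there (-0.88 ± 0.13), and LRIG3 the one that fell in PC3 ETV4WT (-0.67 ± 0.15, lost without eGFP replicate 1 at an adjusted p of 0.087). DUSP4 (2.27 ± 0.12), DUSP6 (1.48 ± 0.12) and SPRY4 (1.05 ± 0.14) were the 3 that rose in 22Rv1 ETV4WT. SPRY4 was not called there without eGFP replicate 2, with a change of 0.95. Of the 5 rises in PC3 ETV4AAA, only that of ERRFI1 kept its call when either eGFP library was left out. The PC3 ETV4AAA rise of DUSP6 was also not called under upper-quartile scaling (adjusted p = 0.0609) or with each line on its own (adjusted p = 0.126).

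**Figure D5:**
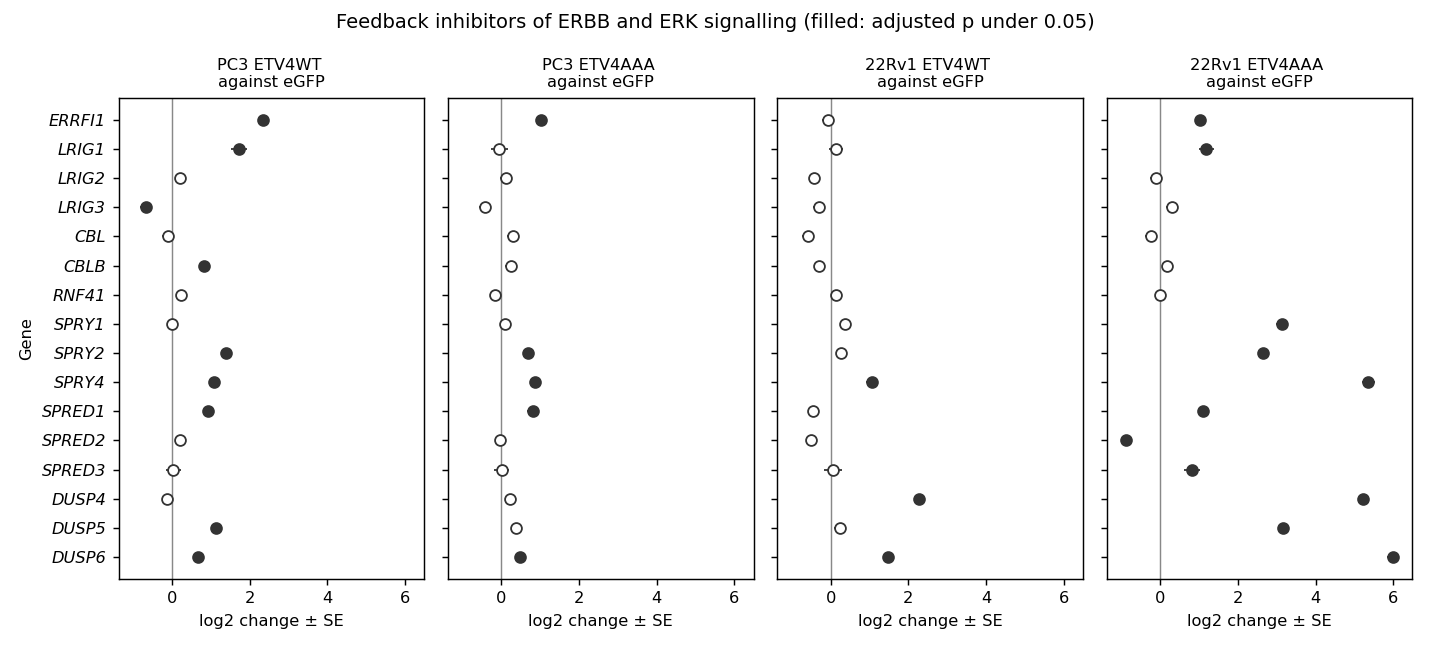
log2 change ± SE (horizontal axis) of 16 feedback inhibitors (vertical axis) in the 4 construct comparisons against eGFP, filled where the adjusted p was under 0.05. DUSP6, SPRY4 and DUSP4 lie beyond 5 in 22Rv1 ETV4AAA, and ERRFI1 leads in PC3 ETV4WT.

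Transcripts known to rise with ERK activity did not move one way. Of 11, 5 rose and 2 fell in PC3 ETV4WT, 1 rose and 0 fell in PC3 ETV4AAA, 1 rose and 2 fell in 22Rv1 ETV4WT, and 3 rose and 6 fell in 22Rv1 ETV4AAA, with medians of 0.17, -0.10, -0.04 and -0.52. Among all genes 23.4%, 3.69%, 1.5% and 31.8% were called in these comparisons. PHLDA1 rose in 22Rv1 with ETV4AAA from 3.18 and 3.13 CPM to 104 and 96.6 CPM (4.99 ± 0.15). In the same libraries the immediate early genes EGR1 and FOS fell, EGR1 from 146 and 132 CPM to 41.1 and 36.8 CPM (-1.84 ± 0.15) and FOS from 115 and 101 CPM to 34.6 and 32.9 CPM (-1.68 ± 0.20). The other PEA3 factors ETV1 (-2.16 ± 0.14) and ETV5 (-2.11 ± 0.14) fell there too. In PC3 with ETV4WT, EGR1 went the other way, from 0.242 and 0.172 CPM to 4.48 and 4.06 CPM (4.34 ± 0.23).

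Markers of other cells or of the other line were read beside the 22Rv1 ETV4AAA rises. The 4 genes chosen as high in PC3 (CAV1, CAV2, VIM and CD44) summed to 129 and 140 CPM in 22Rv1 eGFP, 266 and 259 in the ETV4WT libraries and 454 and 452 in the ETV4AAA libraries, against 1089 to 1620 CPM in PC3. CD44 made up 430 and 427 CPM of the ETV4AAA sum, and the other markers of this list were also higher than with eGFP. VIM was at 11.6 and 12.5 CPM there, against 6.24 and 7.23 CPM in 22Rv1 eGFP and 473 to 640 CPM in PC3. In 22Rv1 CAV1 went from 2.32 and 3.85 CPM with eGFP to 10.3 and 11.2 with ETV4AAA. CAV2 went from 0.369 and 0.556 CPM to 1.84 and 1.80. The 4 immune cell markers reported (PTPRC, CD3E, CD68 and LYZ) summed to 0.103 and 0.103 CPM in 22Rv1 eGFP and to 0.111 and 0.308 CPM with ETV4AAA. CD3E and PTPRC were at most 0.041 CPM, so most of the 0.308 CPM lay in CD68 and LYZ. The 3 endothelial markers (PECAM1, VWF and CDH5) summed to at most 0.041 CPM in 22Rv1 eGFP and to 0.710 and 0.831 CPM with ETV4AAA. PECAM1 and CDH5 had 0 counts in 22Rv1 eGFP. CDH5 was at most 0.0444 CPM, so most of the ETV4AAA sum lay in PECAM1 and VWF. The 5 smooth muscle and fibroblast markers summed to 5.03 and 6.26 CPM in 22Rv1 eGFP, 8.32 and 9.64 with ETV4WT and 7.37 and 9.54 with ETV4AAA. Of these ACTA2 was at 1.95 and 1.94 CPM with eGFP, 5.01 and 6.12 with ETV4WT and 4.64 and 6.34 with ETV4AAA, LUM was lower with ETV4AAA than with eGFP, and DES was at most 0.133 CPM. The 8 prostate luminal markers reported summed to 2845 and 2607 CPM in 22Rv1 eGFP and 2815 and 2550 CPM with ETV4AAA, all 8 above 1 CPM. Their part in the results was not tested. In bulk RNA, more cells with a transcript and more transcript per cell cannot be told apart.

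Likeness to other genes was measured as Pearson's r of log2 CPM, centred on each line's mean, over the 12 libraries, among the protein-coding genes with a mean of at least 5 CPM. The libraries share groups and depth, so r is a description without a test. TGFA was most like HAPLN1 (0.996) and the feedback gene SPRY1 (0.995), EPGN most like ADGRL2 (0.994) and PAM (0.991), and AREG most like ASXL3 (0.989). HBEGF was most like CTH (0.969) and EREG most like CREB5 (0.965). ERBB2 was most like ZNF687 (0.992), EGFR most like PHLPP2 (0.962), ERBB3 most like NMNAT2 (0.950), BTC most like SEMA3E (0.940) and ERBB4 most like MITF (0.894). Among the 10 genes TGFA and EPGN had r = 0.981 and AREG and EPGN r = 0.942, while HBEGF and TGFA had r = 0.0203.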

How the data were processed

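Polyadenylated RNA of 12 libraries was sequenced on a NextSeq 500, per the labels. The submitters' processing notes name FastQC 0.11.9, STAR 2.5.3a and the GRCh38 build. Which program counted the reads, its strand setting and its annotation are not stated in the sources used here. The deposited values are raw counts per Ensembl gene, made by the authors.

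Symbols, positions and exon lengths come from GENCODE 29, which holds 99.55% of the identifiers. Counts were filtered by group (23238 genes left), scaled with TMM and fitted with edgeR 4.0.16 in R 4.3.3, with 1 mean per group over 12 libraries and 6 residual degrees of freedom. The SE is the change divided by the square root of F. The script was tested on simulated data. Contrasts were the constructs against eGFP and each other, the lines with eGFP, and the line differences of each construct effect. Alternatives were DESeq2 1.42.0, limma 3.58.1 voom, other scalings, no filter, each line alone, a replicate block and left-out libraries.

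The 10 genes, the lists and the alternatives were chosen with earlier results of these data known. All 10 are named. From each list up to 4 called genes per direction with the lowest adjusted p may be named, and up to 3 nearest patterns per gene, with overlapping genes, ETV4 and markers. The genomic neighbours and ADAM17 in 22Rv1 were chosen after their values were seen. A group with 1 to 3 counts is described by the pooled ratio and its 95% interval. A marker each of the luminal and immune lists is not reported here and was left out of their sums.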

Additional observations from a re-analysis of the deposited data

Results flagged for a closer look

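The construct effect differed between the lines for 2 of the 10 genes with ETV4WT and 5 with ETV4AAA, by an interaction contrast in edgeR. Among all genes tested 12.5% and 16.2% were called in these contrasts. HBEGF responded less in 22Rv1 than in PC3, by -2.55 ± 0.23 for ETV4WT (adjusted p = 3.88e-05) and -1.52 ± 0.23 for ETV4AAA (adjusted p = 0.000645). AREG differed by -2.12 ± 0.42 for ETV4WT (adjusted p = 0.00707) and by 4.71 ± 0.38 for ETV4AAA (adjusted p = 4.89e-06). The ETV4AAA effect was larger in 22Rv1 for TGFA, by 2.90 ± 0.21 (adjusted p = 1.85e-06), and for EPGN, by 4.34 ± 0.46 (adjusted p = 4.82e-05). For ERBB3 it differed by 0.70 ± 0.20 (adjusted p = 0.0343), the value of a small fall in PC3 and none called in 22Rv1. This call was lost with DESeq2 size factors (adjusted p = 0.0507), upper-quartile scaling (adjusted p = 0.0813) and the DESeq2 Wald test (adjusted p = 0.0769). It was also lost in most fits that left out 1 library, where the difference was 0.64 to 0.78.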

How the results depend on the processing

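Over 1087 values of single genes under the alternatives, 988 kept their direction and their side of the threshold, 32 lost the call, 15 gained one and 52 changed sign, with 0 sign changes among values called both ways. The rise of HBEGF in PC3 with both constructs and the rises of AREG, TGFA and EPGN in 22Rv1 ETV4AAA kept their call under every alternative run. Leaving out 1 library moved the number of genes called from 5 to between 2 and 6 in PC3 ETV4WT and from 2 to between 1 and 2 in PC3 ETV4AAA. PC3 ETV4AAA had 1 with limma-voom and 1 with each line alone, and without the low-count filter 22Rv1 ETV4WT had 1 and 22Rv1 ETV4AAA 5. Pairing was read from replicate numbers, as r between the deviations of same-numbered libraries. It was 0.49 between the PC3 ETV4AAA and ETV4WT groups and from -0.15 to 0.21 in the other comparisons read. The labels do not say that a number marks a shared culture. With a replicate block the line difference of ETV4WT had 4 genes called in place of 2.

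Sign changes fell on values that were not called. Against eGFP in PC3 ETV4WT, upper-quartile scaling gave 0.091 for TGFA and 0.079 for BTC, and no filter 0.043 and 0.028. Between the PC3 constructs, upper-quartile scaling gave -0.083 for ERBB2 and -0.090 for ERBB3, no filter -0.034 and -0.039, and replicate 1 alone -0.076 for ERBB2. In 22Rv1 ETV4WT upper-quartile scaling gave -0.0018 for EREG and -0.0079 for ERBB2. For the line differences it gave -0.055 for EPGN with ETV4WT, and replicate 1 alone gave 0.091 for BTC with ETV4WT and 0.034 for EGFR with ETV4AAA. The cause was not tested.

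With 1 library left out, the ranges that crossed 0 were, in PC3 ETV4WT, -0.17 to 0.048 for TGFA and -0.33 to 0.15 for BTC. Between the PC3 constructs they were -0.40 to 0.24 for EPGN, -0.29 to 0.20 for BTC, -0.40 to 0.52 for ERBB2 and -0.17 to 0.26 for ERBB3. In 22Rv1 ETV4WT they were -2.29 to 2.32 for EREG, -0.17 to 0.11 for HBEGF, -0.42 to 0.092 for BTC, -0.28 to 0.060 for EGFR, -0.16 to 0.23 for ERBB2 and -0.25 to 0.064 for ERBB4. In 22Rv1 ETV4AAA they were -0.080 to 0.19 for HBEGF, -0.35 to 0.041 for ERBB2 and -0.14 to 0.0039 for ERBB3, and against ETV4WT -0.062 to 0.23 for HBEGF, -0.28 to 0.056 for EGFR, -0.023 to 0.17 for ERBB3 and -0.19 to 0.059 for ERBB4. For the line difference of ETV4WT they were -3.34 to 1.27 for EREG, -0.29 to 0.67 for EPGN, -0.36 to 0.20 for BTC and -0.052 to 0.68 for ERBB4, and of ETV4AAA -0.081 to 0.090 for EGFR.

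Upper-quartile scaling moved the median of all genes by 0.12 in PC3 ETV4WT, 0.32 between the lines, and -0.18 and -0.10 for the line differences of ETV4WT and ETV4AAA. The share of called genes that were higher went from 54.4% to 69.2% in PC3 ETV4WT, from 33.3% to 17.0% between the PC3 constructs, from 49.2% to 59.4% between the lines and from 39.4% to 24.4% for the line difference of ETV4WT. Calls over all genes went from 858 to between 213 and 2253 in PC3 ETV4AAA, from 348 to between 119 and 904 in 22Rv1 ETV4WT, from 5434 to between 2553 and 6719 in PC3 ETV4WT, from 2903 to between 1425 and 4436 for the line difference of ETV4WT and from 3766 to between 2317 and 4759 for that of ETV4AAA. Between the constructs they went from 2550 to between 1341 and 2930 in PC3 and from 5455 to between 3437 and 5975 in 22Rv1, lowest with the PC3 construct libraries of replicate 1 alone and without 22Rv1 ETV4AAA replicate 1. The lowest of the others were without PC3 eGFP replicate 1 (PC3 ETV4AAA) or 2 (PC3 ETV4WT and both line differences) and without ETV4WT replicate 1 (22Rv1 ETV4WT). EREG in 22Rv1, at 0 to 5 counts a library, is limited by depth.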
